A study of Arabidopsis thaliana with 24 samples.

Results

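The xyloglucan endotransglucosylase/hydrolase (XTH) and alpha-expansin (EXPA) genes of Arabidopsis thaliana were followed from the cut hypocotyl through callus to shoot induction. The members were chosen by name: XTH1 to XTH33, with TCH4 counted as XTH22, and EXPA1 to EXPA17 and EXPA20 without EXPA7. These are 50 genes, 33 XTHs and 17 alpha-expansins, out of 25960 genes with a row. No row was analysed here for XTH1. Of the 49 members with a row, 40 passed the filter on low values, 25 XTHs and 15 alpha-expansins. The filter kept genes with at least 1 rpm, the reads of an isoform scaled to a library total of 1000000, in at least 3 of the 24 libraries.

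Growing plant cells are held by a wall of cellulose fibres tied together by other polysaccharides, of which xyloglucan is the main one in Arabidopsis. XTH enzymes cut a xyloglucan chain and join the new end to another chain or, in some members, to water. Alpha-expansins loosen the contacts between cellulose and its neighbours in acid conditions without cutting a bond. The dark-grown hypocotyl lengthens almost wholly by cell expansion, whereas callus and new shoots grow by division and expansion together, and single members of both families are known for particular organs and growth states.

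All seedlings were of the Columbia (Col-0) accession, grown for 7 days in the dark at 22 °C on medium with sucrose. Hypocotyl explants of about 10 mm were cut and either taken within 15 minutes (0 d) or laid under constant light on callus-inducing medium (CIM), which holds the auxin 2,4-D and kinetin, for 4 days (CIM 4 d). Others then went to shoot-inducing medium (SIM), with the auxin IAA and the cytokinin 2-IPA, for 4 or 6 more days (SIM 4 d and SIM 6 d). The wild type (WT) and the siz1-2 mutant were sampled at every stage. The mutated gene is SIZ1, which encodes a ligase that attaches the small protein SUMO to other proteins. There are thus 8 groups of 3 libraries, and the labels do not say whether the 3 came from separate cultures. The p-values set a difference against the spread between libraries within groups, estimated over all 8 groups unless stated. That spread may be partly technical. Freshly cut explants came from dark-grown plants and all later ones from the light, so medium, time and light cannot be told apart in the first step. From CIM to SIM 4 d, medium and time in culture changed together and cannot be told apart either.

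The libraries held 7979350 to 15591781 reads. At SIZ1 itself, reads of isoform 1 exceeded those of isoform 3 by 216 to 493 in every WT library, while the same difference was -1 to 0 in every siz1-2 library. A set of 4 libraries stood apart within its group. WT 0 d replicate 1 had 487 rpm over 5 light-grown marker genes, against 7.50 and 7.88 rpm in the other WT 0 d libraries. The same library had 119.7 rpm of PORA, a gene of the dark-grown state, against 0.349 and 1.09 rpm. WT CIM 4 d replicate 2 and siz1-2 CIM 4 d replicate 3 had 973 and 979 rpm over 8 salicylic acid genes, against 62.9 to 69.8 rpm in the other CIM libraries. These libraries also differed in phloem (50.3 and 28.9 against 115 to 158 rpm), xylem (113 and 55.0 against 170 to 254) and epidermis markers (1068 and 1404 against 586 to 747). Their root hair, stomatal and heat shock sums did not set them apart. Salicylic acid genes serve below only to name these libraries, and what set them apart was not tested. WT SIM 6 d replicate 2 had 4966 rpm over 6 heat shock genes, against 109 to 112 rpm in the other WT libraries of that stage. Results that rest on these libraries are given with and without them. Shares of all tested genes are from the fit over all 24 libraries. Counts of members without the 4 libraries, and in most other alternative fits, have no such share beside them. Those counts do not set the members apart from other genes.

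The 2 promoters that carry the clearest pattern on CIM belong to EXPA1 (AT1G69530) and EXPA10 (AT1G26770), the alpha-expansins that rose most. They are shown as the 250 bases before the transcript start, from the RefSeq copy of TAIR10.1, read 5′ to 3′ on the gene's strand, at chr1:26141476-26141725 (+) and chr1:9259182-9259431 (+). Capitals mark the motifs searched on both strands that occur there: CACATG, the PBE-box, which overlaps its own reverse complement to give CACATGTG in both genes; CGTGTG, a brassinosteroid response element, read on the other strand of EXPA1; and TGTCTC, an auxin response element, in EXPA10.
EXPA1: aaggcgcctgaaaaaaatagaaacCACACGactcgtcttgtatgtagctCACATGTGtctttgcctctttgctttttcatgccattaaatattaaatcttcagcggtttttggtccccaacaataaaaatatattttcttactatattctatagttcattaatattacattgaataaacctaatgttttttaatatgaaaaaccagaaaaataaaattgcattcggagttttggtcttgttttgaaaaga
EXPA10: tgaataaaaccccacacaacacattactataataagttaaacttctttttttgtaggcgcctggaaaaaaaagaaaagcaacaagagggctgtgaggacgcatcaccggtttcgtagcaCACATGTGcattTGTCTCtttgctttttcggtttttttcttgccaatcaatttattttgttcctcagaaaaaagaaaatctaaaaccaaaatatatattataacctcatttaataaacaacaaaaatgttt
The 8 letters CACATGTG lay 201 bases before the start of EXPA1 and 131 bases before that of EXPA10. Further on, both genes carried the 14 letters CTCTTTGCTTTTTC, 186 and 116 bases before the start, and upstream both carried the 9 letters AGGCGCCTG, 249 and 196 bases before it. Among 20135 promoters of tested genes, each from 250 bases before to 50 after the start, CACATGTG occurred in 84 (0.417%), AGGCGCCTG in 3 (0.0149%) and CTCTTTGCTTTTTC in 2 (0.00993%) on either strand. The EXPA1 and EXPA10 promoters were the only ones with the last of these. A further shared stretch of 9 letters, AAAATATAT, lay 125 and 44 bases before the start. It was common, in 1172 promoters (5.82%), that of XTH31 among them. These stretches were looked for after the 2 sequences had been seen, and a match is a description of letters, not of a working site.

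For contrast, the promoters of XTH7 (AT4G37800) and XTH31 (AT3G44990), the XTHs that fell most on CIM, are shown in the same way, at chr4:17777446-17777695 (-) and chr3:16448845-16449094 (-). They hold none of the searched motifs within these 250 bases, and XTH31 holds TGTCGG in the 50 bases after its start.
XTH7: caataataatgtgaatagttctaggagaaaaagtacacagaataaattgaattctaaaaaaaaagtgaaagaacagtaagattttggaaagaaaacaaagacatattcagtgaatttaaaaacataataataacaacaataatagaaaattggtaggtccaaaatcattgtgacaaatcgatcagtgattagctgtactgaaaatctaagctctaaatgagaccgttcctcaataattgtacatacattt
XTH31: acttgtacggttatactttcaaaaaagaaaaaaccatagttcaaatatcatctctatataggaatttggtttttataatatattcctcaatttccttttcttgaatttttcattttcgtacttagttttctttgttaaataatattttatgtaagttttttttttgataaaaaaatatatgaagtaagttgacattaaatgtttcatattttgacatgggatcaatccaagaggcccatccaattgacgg
Over all 40 tested members, the PBE-box CACATG occurred in 8 promoters (20%), against 12.5% of all promoters. These were XTH17, XTH18, XTH33, EXPA1, EXPA10, EXPA11, EXPA13 and EXPA17, and they include members that fell and members that rose on CIM. The G-box CACGTG occurred in 0 of the 40, against 8.67% of all promoters, and the LBD motif GCGGCG in 0, against 2.39%. The brassinosteroid element, CGTGTG or CGTGCG, occurred in 4 members (10%) against 8.54%, TGTCTC in 4 (10%) against 13.9% and TGTCGG in 2 (5%) against 5.62%.

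Summed per kilobase of transcript, which allows levels of different genes to be added, the 2 families moved in opposite directions when explants were put on CIM. The XTH sum in WT was 3075 ± 331 rpm per kb (SD, n = 3) at 0 d and 515 ± 97.6 on CIM, and came back in part to 743 ± 70.3 at SIM 4 d and 963 ± 73.6 at SIM 6 d. The alpha-expansin sum was 423 ± 50.8 rpm per kb at 0 d, 1850 ± 107 on CIM, 2886 ± 107 at SIM 4 d and 2789 ± 220 at SIM 6 d. In siz1-2 the XTH sums were 2871 ± 226, 717 ± 182, 774 ± 66.7 and 957 ± 19.1, and the alpha-expansin sums 312 ± 24.3, 1433 ± 154, 2444 ± 226 and 2668 ± 93.1 in the same order. In both genotypes no library of the 0 d group overlapped the later groups for either family. In bulk RNA, fewer cells of a type and less RNA per cell cannot be told apart, and this holds for every result here.

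**Figure D1:**
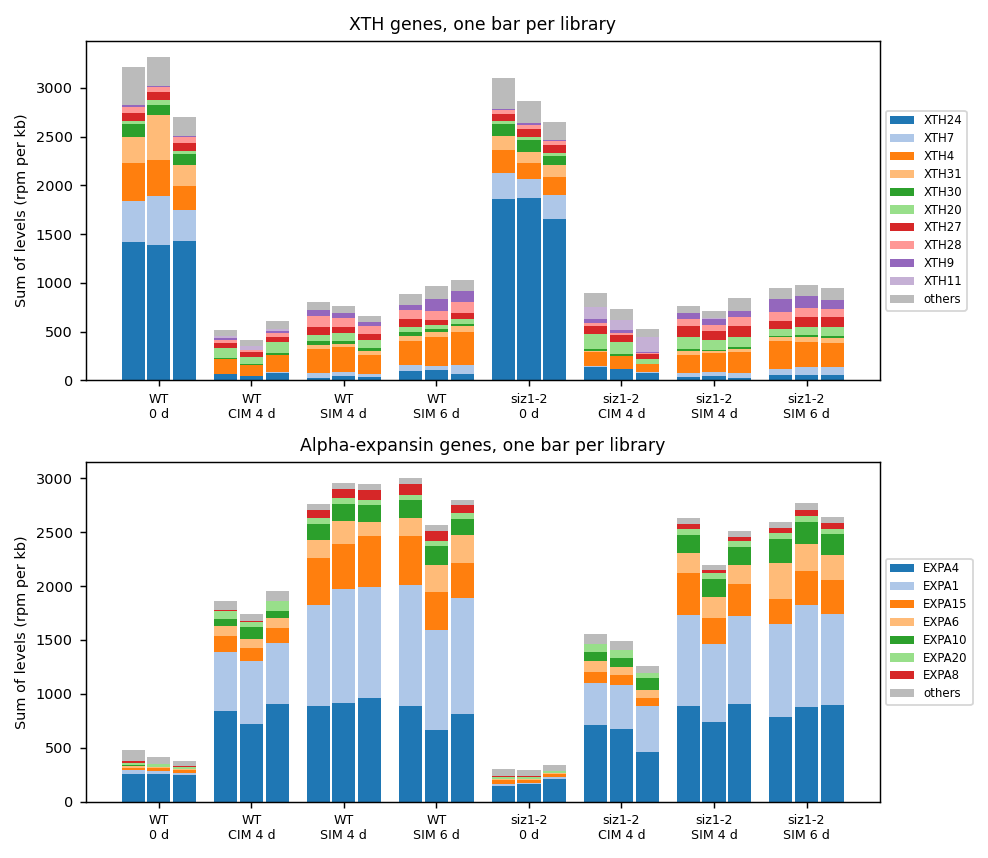
Summed levels (rpm per kilobase of transcript) of the XTH genes (top) and of the alpha-expansin genes (bottom), 1 bar per library in 8 groups of 3, with the leading members in colour and all others in grey. The XTH sum in WT is 3075 at 0 d and 515 on CIM, with XTH24 the main share at 0 d, whereas the alpha-expansin sum goes from 423 to 1850 and is carried mainly by EXPA4 and EXPA1.

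The make-up of each family changed with the total. At 0 d in WT, XTH24 alone made 46.3 ± 5.90% of the XTH sum per kb, XTH7 13.3 ± 1.73%, XTH4 10.97 ± 1.57% and XTH31 9.99 ± 3.20%. On CIM, XTH4 led with 28.0 ± 1.84%, followed by XTH20 with 18.8 ± 1.21% and XTH24 with 12.6 ± 0.729%, while XTH7 and XTH31 made 0.249% and 0.615%. XTH4, known from stems undergoing secondary growth, led in callus although its own level fell from 0 d, by 1.23 ± 0.22 on the log2 scale. Among the alpha-expansins, EXPA4 made 61.0 ± 5.53% of the sum at 0 d and EXPA1 5.88 ± 0.653%. EXPA1 made 30.4 ± 2.57% on CIM and 37.3 ± 1.02% at SIM 6 d, when EXPA4 was at 28.3 ± 1.91%. In siz1-2 the leader of the XTHs at 0 d was also XTH24, with 62.5% of the sum, and on CIM the highest mean share was that of XTH11, at 19.1 ± 8.50%. That lead rested on siz1-2 CIM 4 d replicate 3, where XTH11 made 28.9%. In replicates 1 and 2 it made 13.7% and 14.8%, behind XTH20 with 18.0% and 17.4%, XTH4 and XTH24.

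By the stage of the highest WT mean, 13 of 25 tested XTHs and 5 of 15 tested alpha-expansins peaked at 0 d, and 4 XTHs and 2 alpha-expansins on CIM. A single XTH and 3 alpha-expansins peaked at SIM 4 d, and 7 XTHs and 5 alpha-expansins at SIM 6 d. Of all 20361 tested genes 27.1% peaked at 0 d, 36.4% on CIM, 13.4% at SIM 4 d and 23.0% at SIM 6 d. The peak was clear of the next stage, with no overlap of libraries, for 8 XTHs and 3 alpha-expansins at 0 d, against 19.7% of all tested genes. On CIM it was clear for 2 XTHs and 1 alpha-expansin, against 18.3%. At SIM 4 d it was clear for 0 XTHs and 1 alpha-expansin, against 1.68%, and at SIM 6 d for 1 XTH and 0 alpha-expansins, against 3.28%. The peak stage was the same in both genotypes for 30 of 40 members, which is 75%, against 75.2% of all tested genes.

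**Figure D2:**
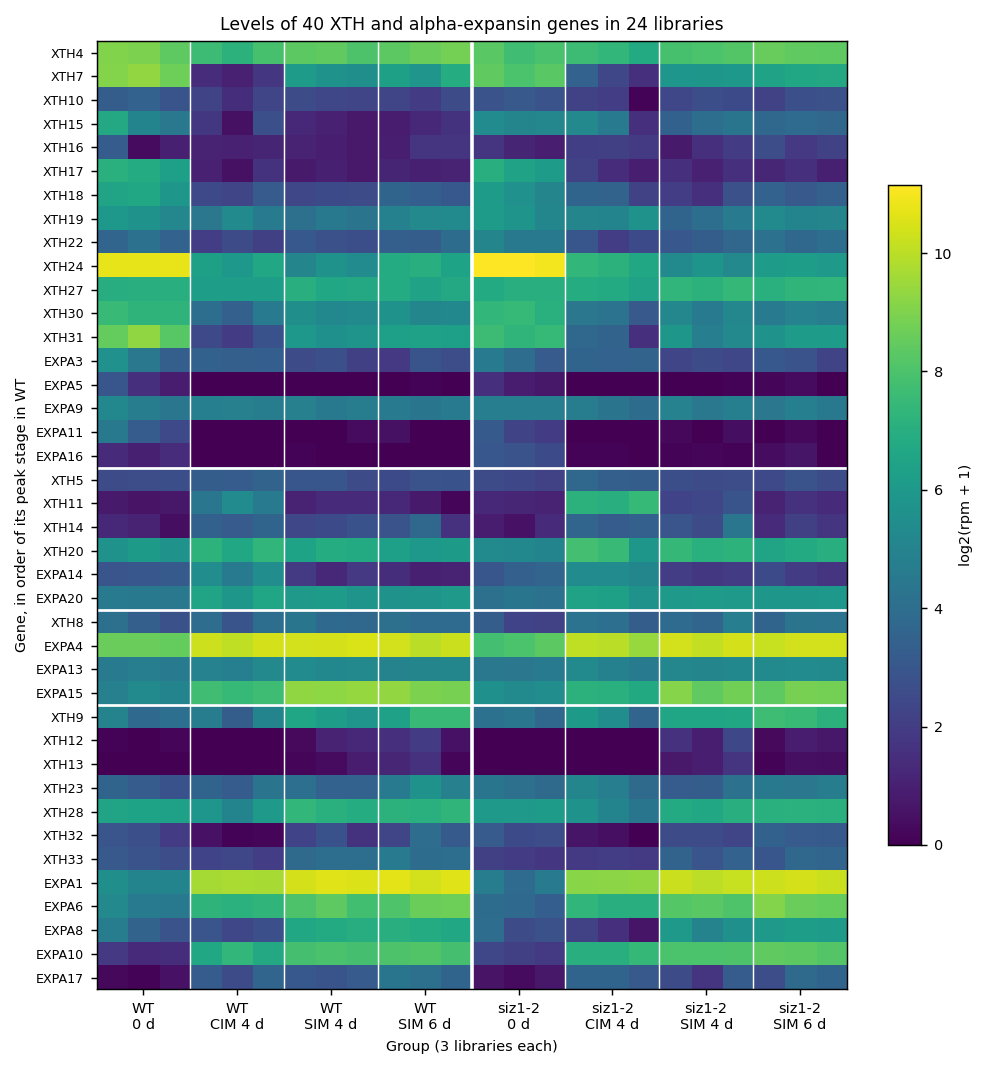
Levels of the 40 tested members, as log2(rpm + 1), in 24 libraries (columns, 3 per group, WT left and siz1-2 right), in rows ordered by the stage of the highest WT mean, with white lines between the stages. In the upper block of 18 genes, XTH7, XTH24 and XTH31 are brightest in the 0 d columns, and EXPA1, EXPA4 and EXPA15 are bright in all later columns.

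The first comparison set WT explants on CIM for 4 days against freshly cut ones. Of the 40 tested members, 13 rose and 20 fell at a limma adjusted p below 0.05, whereas 49.1% of all 20361 tested genes rose and 26.6% fell. The median log2 change was -0.56 over the members and 0.35 over all genes. The families differed: of 25 tested XTHs 4 rose and 15 fell, with a median of -0.81, and of 15 tested alpha-expansins 9 rose and 5 fell, with a median of 1.68. The alpha-expansin counts were nearer to the shares of all tested genes than the XTH counts were. Scaling by median-of-ratios in place of the library total moved the median of all genes in this comparison by -0.36 in WT and -0.37 in siz1-2, and all genes then split into 7237 higher and 7679 lower in place of 10003 and 5417. Under that scaling 11 members were higher and 20 lower in WT, with 3 XTHs higher and 15 lower and 8 alpha-expansins higher and 5 lower. Changes are given on the library-total scale throughout. In the other steps and between genotypes that scaling moved the median of all genes by less than 0.1. Only EXPA13 turned its sign among the 33 called members, from 0.33 to -0.09.

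Of the hypocotyl members that fell, XTH7 had 540, 648 and 407 rpm in the 3 WT 0 d libraries and 1.70, 1.01 and 2.38 rpm on CIM. The 0 d libraries were all far above the CIM libraries, and the log2 change was -7.63 ± 0.36 (SE; limma adjusted p = 6.1e-13). XTH31, a group III-A enzyme that releases xyloglucan ends to water rather than to another chain, had 366, 632 and 305 rpm at 0 d and 4.53, 2.96 and 6.02 rpm on CIM. Its log2 change was -6.27 ± 0.42 (adjusted p = 1.0e-10). XTH17, known for growth of the root and of shaded petioles, had 132, 115 and 76.9 rpm at 0 d and 1.04, 0.422 and 2.13 rpm on CIM, and fell by 5.67 ± 0.30 on the log2 scale (adjusted p = 1.2e-12). These 3 genes went from strong levels to 6.02 rpm or less in every CIM library, with no overlap between groups.

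XTH24, first described as the meristem gene MERI5, was the leading member of the cut hypocotyl per kilobase, at 1411 rpm per kb, with 1718, 1675 and 1729 rpm. On CIM it had 78.5, 59.6 and 98.4 rpm, a log2 change of -4.45 ± 0.20 (adjusted p = 1.7e-13), and so remained well expressed. XTH15, which like XTH17 is known for shade-induced petiole growth, had 106, 31.6 and 20.8 rpm at 0 d and 2.46, 0.422 and 5.64 rpm on CIM. Its fall of 3.73 ± 0.72 (adjusted p = 0.00011) rested in part on WT 0 d replicate 1, the library with light-grown marker genes, and was 3.06 on the log2 scale without it. XTH15 overlaps an antisense gene, AT4G14120, over 28.8% of its transcript's 50-base windows. The group means of that gene went from 1.40 rpm at 0 d to 6.69 rpm on CIM, opposite to XTH15, and since the strand setting of the counting is not given, reads of the pair may not be told apart.

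The group III-B genes XTH27, XTH28, XTH30 and XTH33 and the second group III-A gene, XTH32, completed the falling set: all 6 tested members of group III fell in WT. XTH30 fell most among III-B, from 160 ± 17.1 to 16.2 ± 7.10 rpm (SD, n = 3). XTH33 fell least, by 0.68 ± 0.21 on the log2 scale. XTH27, known from developing veins of leaves, went from 126 ± 2.68 to 74.1 ± 1.35 rpm (log2 change -0.75 ± 0.12, adjusted p = 1.5e-05). XTH28 lost its call without WT CIM 4 d replicate 2 (log2 -0.50, adjusted p = 0.063). XTH19 lost it without WT 0 d replicate 1 (-0.66, 0.068) or without WT CIM 4 d replicate 1 (-0.66, 0.067).

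The members that rose were led by alpha-expansins. EXPA10, known for leaf and petiole growth, had 2.65, 1.57 and 1.75 rpm at 0 d and 99.4, 163 and 105 rpm on CIM, a log2 change of 5.35 ± 0.17 (adjusted p = 7.9e-16). EXPA1, known from guard cells, had 45.8, 32.1 and 31.5 rpm at 0 d and 790, 845 and 816 rpm on CIM, a change of 4.47 ± 0.16 (adjusted p = 3.3e-15). EXPA17 had 0.166, 0.0872 and 0.438 rpm at 0 d and 8.60, 5.07 and 11.4 rpm on CIM, and rose by 2.88 ± 0.35 (adjusted p = 2.5e-07). All CIM libraries were above all 0 d libraries for each of the 3. EXPA17 and EXPA14 are known targets of LBD18, a transcription factor of lateral root and callus formation, and LBD18 itself went from 2.87 ± 0.554 to 87.2 ± 25.8 rpm. EXPA14 rose by 2.12 ± 0.24 (adjusted p = 9.0e-08). The part of LBD18 in these rises was not tested.

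EXPA15 had 27.8, 39.7 and 31.9 rpm at 0 d and 209, 178 and 202 rpm on CIM (log2 change 2.54 ± 0.17, adjusted p = 4.6e-11). EXPA4, already the main alpha-expansin at 0 d with 384 ± 12.9 rpm (SD, n = 3), reached 1238 ± 142 rpm, and at 825 rpm per kb it was the highest member per kilobase on CIM. The only XTH among the 5 strongest rises was XTH11, with 0.745, 0.523 and 0.657 rpm at 0 d and 19.9, 40.2 and 22.3 rpm on CIM (log2 change 4.05 ± 0.25, adjusted p = 1.4e-11). Its highest CIM library was replicate 2, the one with high salicylic acid genes. XTH20, known for the rejoining of cut stem tissue, went from 56.3 ± 8.53 to 137 ± 30.0 rpm (log2 change 1.25 ± 0.32, adjusted p = 0.0017). XTH19, its partner in that process, is among the members that fell.

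The alpha-expansins that fell were low to moderate at 0 d. EXPA11 had 22.0, 8.46 and 4.49 rpm at 0 d and no read in any WT CIM library, and was at least 118-fold lower against a floor of 3 reads over the 3 libraries, or at least 65.6-fold without WT 0 d replicate 1. EXPA5, known for brassinosteroid-linked growth of leaves and stems, had 6.79, 1.83 and 0.876 rpm at 0 d and no read on CIM, and was at least 32.1-fold lower on the same floor, or at least 13.7-fold without that library. For both, the highest library was WT 0 d replicate 1. EXPA3 and EXPA8 were also called lower, but EXPA3 lost its call without that library (log2 -0.53, adjusted p = 0.20). EXPA8 lost it without that library (-0.51, 0.27) and without WT 0 d replicate 2 (-1.11, 0.052), WT CIM 4 d replicate 2 (-0.88, 0.11) or WT CIM 4 d replicate 3 (-1.04, 0.067). EXPA13 lost it without WT 0 d replicate 1 (0.32, 0.052), WT 0 d replicate 3 (0.30, 0.072) or WT CIM 4 d replicate 3 (0.22, 0.15). Without the 4 libraries that stood apart, 16 members were higher and 17 lower, out of 38 tested.

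**Figure D3:**
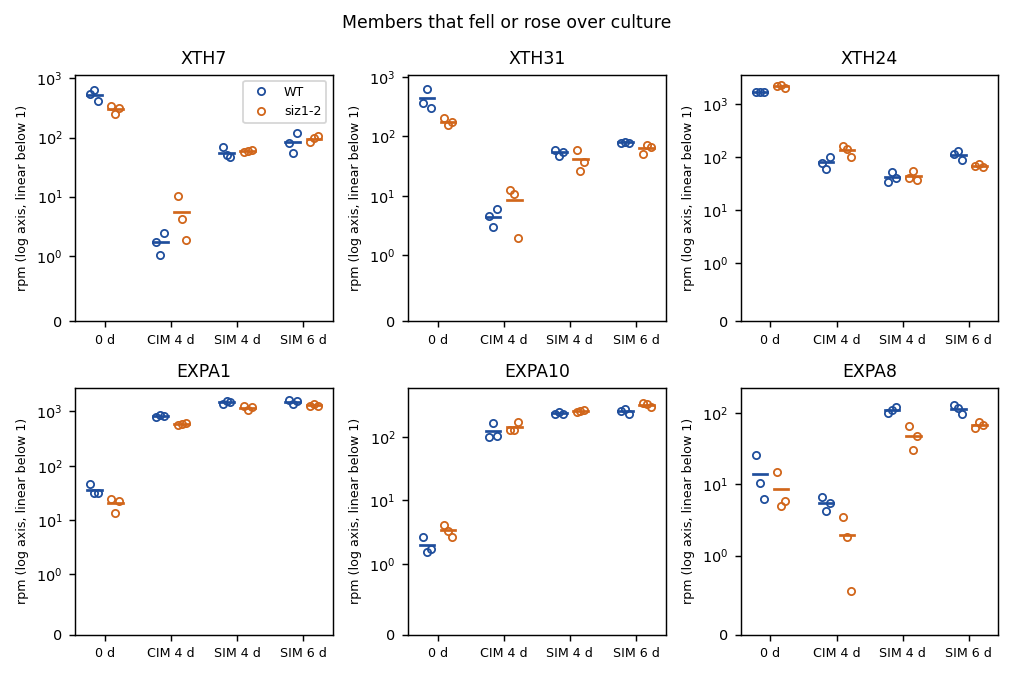
Levels (rpm, log axis that is linear below 1) of 3 XTHs that fell and 3 alpha-expansins that rose, in every library of WT (blue) and siz1-2 (orange) at 4 stages, with group means as short lines. XTH7 goes from 407 to 648 rpm in the WT 0 d libraries to 1.01 to 2.38 rpm on CIM and partly returns on SIM, EXPA1 and EXPA10 go up on CIM and stay up, and EXPA8 goes up on SIM.

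The second comparison set SIM 4 d against CIM 4 d in WT. Of 40 members 15 rose and 4 fell, against 21.2% and 24.5% of all tested genes, and the median log2 change was 0.22 over the members and -0.03 over all genes. Among XTHs 10 rose and 3 fell, and among alpha-expansins 5 rose and 1 fell. All 6 tested members of group III, which had fallen on CIM, were among those that rose. Without the 4 libraries that stood apart 16 were higher and 8 lower.

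XTH7 returned from 1.70, 1.01 and 2.38 rpm to 70.2, 50.8 and 45.9 rpm, a log2 change of 4.40 ± 0.36 (adjusted p = 1.7e-08). It stayed below the 407 to 648 rpm of the cut hypocotyl, with no overlap. XTH31 had 60.0, 47.7 and 53.7 rpm at SIM 4 d and rose by 3.35 ± 0.42 (adjusted p = 4.0e-06). XTH32 had 0.472, 0.0845 and 0.125 rpm on CIM and 3.69, 5.98 and 2.08 rpm at SIM 4 d (log2 change 1.94 ± 0.34, adjusted p = 0.00013). These values overlapped those of XTH32 in the cut hypocotyl, 6.70, 5.58 and 2.96 rpm, whereas XTH7 and XTH31 stayed below theirs. XTH17 had 0.671 to 0.969 rpm at SIM 4 d and was not called.

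EXPA8 had 6.61, 4.22 and 5.51 rpm on CIM and 99.9, 110 and 122 rpm at SIM 4 d, a rise of 4.13 ± 0.43 on the log2 scale (adjusted p = 4.4e-07), and was the only alpha-expansin of the 5 strongest rises. XTH9, known from shoot apices and from secondary growth, had 24.9, 8.62 and 32.1 rpm on CIM and 94.3, 72.8 and 54.8 rpm at SIM 4 d (1.86 ± 0.51, adjusted p = 0.0063). The low CIM library was again replicate 2. EXPA1, EXPA6, EXPA10 and EXPA15 rose further, by 0.84, 0.84, 0.97 and 1.68 on the log2 scale. EXPA15 reached 632 ± 36.2 rpm (SD, n = 3) and EXPA1 1469 ± 94.2 rpm, and EXPA1 was then the highest member per kilobase, at 1007 rpm per kb.

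The members with the largest falls were XTH11 and EXPA14. XTH11 had 1.08, 1.53 and 1.61 rpm at SIM 4 d after 19.9, 40.2 and 22.3 rpm on CIM, a change of -3.50 ± 0.25 (adjusted p = 1.9e-09). EXPA14 had 42.9, 23.2 and 42.6 rpm on CIM and 2.69, 1.45 and 2.62 rpm at SIM 4 d, a change of -3.49 ± 0.24 (adjusted p = 8.0e-10). Both were highest on CIM among the WT stages, with no overlap, and LBD18 went from 87.2 ± 25.8 to 4.13 ± 0.804 rpm (SD, n = 3) over the same step. EXPA17, the other LBD18 target, had 7.39, 6.54 and 8.19 rpm and was not called. Whether LBD18 had a part in this step was not tested. XTH24 fell further, to 33.0, 52.4 and 40.5 rpm (-0.89 ± 0.20, adjusted p = 0.0014).

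XTH5, which also had its WT peak on CIM, was the smallest called change, from 8.79, 8.36 and 10.5 rpm to 6.93, 6.86 and 4.96 rpm (log2 -0.50 ± 0.16, adjusted p = 0.013). It lost its call without WT CIM 4 d replicate 3 (-0.41, 0.064) or WT SIM 4 d replicate 3 (-0.37, 0.087). XTH4 lost its rise without WT CIM 4 d replicate 2 (0.50, 0.079) or WT SIM 4 d replicate 2 (0.62, 0.051). XTH12 lost its rise without any of WT CIM 4 d replicates 1 to 3 (0.87 in each case, adjusted p from 0.064 to 0.069), without WT SIM 4 d replicate 2 (0.76, 0.11) or without WT SIM 4 d replicate 3 (0.70, 0.14).

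XTH12, XTH13, XTH14 and XTH26 are root hair and root members in Arabidopsis, and their levels were set beside those of 4 root hair markers. The summed marker level was 0.262 to 1.204 rpm in WT 0 d, 1.32 to 4.65 on CIM, 9.54 to 23.6 at SIM 4 d and 6.83 to 46.2 at SIM 6 d, and COBL9 had no read in WT at 0 d and on CIM. Within WT SIM 6 d, replicates 1, 2 and 3 had marker sums of 24.8, 46.2 and 6.83 rpm. XTH14 had 6.26, 12.8 and 1.99 rpm, XTH12 1.80, 2.93 and 0.476 rpm and XTH13 1.29, 2.05 and 0.159 rpm in the same libraries. Within siz1-2 SIM 4 d the marker sums were 21.8, 14.8 and 52.3 rpm, and XTH14 had 6.67, 5.08 and 19.95 rpm. The order of the 3 libraries was the same for the markers and for XTH14 in these 2 groups, and also in WT SIM 4 d and siz1-2 SIM 6 d. It was not the same in siz1-2 CIM 4 d or in the 0 d group of either genotype. Nor was it in WT CIM 4 d, where the marker sums were 1.32, 4.65 and 1.38 rpm and XTH14 had 10.0, 8.11 and 10.9 rpm. Between CIM and SIM 4 d in WT the marker sum was higher at SIM 4 d and XTH14 lower, at 4.23, 4.60 and 5.97 rpm. XTH12 and XTH13 had no read on CIM in either genotype. The part of root hair cells in the levels of these members was not tested. XTH14 differed from the others in being already at 9.68 ± 1.43 rpm (SD, n = 3) on CIM in WT. XTH26 stayed below the filter, with 2.63 rpm at most, in siz1-2 SIM 4 d replicate 3.

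Markers of other cell types moved over the same stages. The sum over 4 epidermis markers was 1268 to 1532 rpm in WT at 0 d, 586 to 1068 on CIM and 24.9 to 51.3 at SIM 4 d. That over 4 xylem markers was 437 to 595 rpm at 0 d, 113 to 254 on CIM and 415 to 509 at SIM 4 d, and that over 3 phloem markers 458 to 474, 50.3 to 124 and 344 to 477 rpm. No xylem or phloem marker was at 0 in these groups. The xylem and phloem sums thus went down and up again together with group III of the XTHs, and their part in those levels was not tested. The 4 stomatal markers summed to 1.46 rpm or less in every WT library.

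The third WT comparison, SIM 6 d against SIM 4 d, gave 1 call. XTH24 rose and 0 members fell, against 0.329% and 0.26% of all tested genes. XTH24 had 33.0, 52.4 and 40.5 rpm at SIM 4 d and 116, 129 and 86.2 rpm at SIM 6 d, a log2 change of 1.38 ± 0.20 (adjusted p = 0.0027), and kept its call without each library in turn. Its neighbours XTH18 and XTH19 went from 4.53 ± 0.330 to 9.18 ± 1.93 rpm and from 19.0 ± 2.63 to 35.0 ± 5.24 rpm (SD, n = 3) without passing (adjusted p = 0.32 and 0.21). Beyond it, 7 members had an unadjusted p below 0.05. In a fit of the 2 groups alone XTH24 was not called (adjusted p = 0.11).

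The XTHs lie partly in tandem, which allows neighbours to be set side by side. XTH24, XTH18 and XTH19 follow each other on one strand of chromosome 4 (TAIR10.1, chr4:14819192-14820595, chr4:14825757-14827211 and chr4:14828712-14830224). XTH24 and XTH18 fell 21.7-fold and 14.9-fold on CIM in WT, and XTH19 1.80-fold. XTH12, XTH13, XTH25 and XTH22 lie within chr5:23300321-23308680 on one strand. XTH25 had no read in any library, XTH12 and XTH13 stayed below 5 rpm, and the touch gene XTH22, known as TCH4, had 13.1 ± 3.95 rpm (SD, n = 3) at 0 d and 3.73 ± 1.02 on CIM in WT. XTH23 and XTH14 are 363 bases apart on chromosome 4. XTH14 rose on CIM, from 0.956 ± 0.561 to 9.68 ± 1.43 rpm, and XTH23 had 8.47 ± 2.49 and 12.6 ± 5.09 rpm and was not called. XTH17, XTH18 and XTH19 share at most 1.63% of their 50-base windows with other genes, so that few reads of that length could be split between them.

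The same 3 steps were run in siz1-2. From 0 d to CIM 14 members rose and 16 fell, against 49.6% and 27.3% of all tested genes. Under median-of-ratios scaling 13 members were higher and 19 lower, and all genes split into 7497 higher and 7884 lower in place of 10109 and 5560. From CIM to SIM 4 d 19 rose and 9 fell, against 28.8% and 25.1%, and from SIM 4 d to SIM 6 d 0 rose and 1, XTH11, fell, against 0.285% and 0.344%. The WT and siz1-2 lists share no libraries. All 13 members that rose in WT on CIM also rose in siz1-2, which is 92.9% of the siz1-2 list, and 15 of the 20 that fell did so too, 93.8% of the siz1-2 list. All 15 that rose at SIM 4 d in WT also rose in siz1-2 (78.9% of its list), as did all 4 that fell (44.4% of its list). The same agreement was not counted over all tested genes, so these shares do not set the members apart from other genes. XTH15, XTH19, XTH27, XTH33 and EXPA3 were called lower on CIM in WT and not in siz1-2, and for none of these did the test of the difference between genotypes pass over all libraries. Without the 4 libraries that stood apart it passed for XTH15 (2.18, adjusted p = 0.015) and XTH27 (0.67, 0.034).

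In siz1-2, replicate 3 on CIM, with 979 rpm of salicylic acid genes, was the lowest library for several members. XTH20 had 225, 179 and 58.6 rpm, XTH9 65.7, 43.5 and 11.6 rpm and XTH31 12.7, 10.8 and 1.93 rpm in the 3 libraries. Without it the change of XTH31 on CIM was -3.81 in place of -4.52, that of XTH20 2.46 in place of 1.87 and that of XTH10 -0.82 in place of -1.48. Without it the SIM 4 d rises of XTH4, XTH9, XTH10, XTH30 and EXPA4 were not called, at 0.51 (adjusted p = 0.057), 0.82 (0.15), 0.41 (0.19), 0.64 (0.053) and 0.29 (0.094), and that of XTH31 was 1.66 in place of 2.36. The rise of XTH10 also lost its call without siz1-2 SIM 4 d replicate 2 (0.99, 0.062).

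Other siz1-2 calls also rested on single libraries. At SIM 4 d, XTH18 was not called without siz1-2 CIM 4 d replicates 1 or 2 (-0.76 and -0.78) or siz1-2 SIM 4 d replicates 1 or 2 (-0.94 and -0.72), at adjusted p from 0.068 to 0.13. XTH23 was not called without the same 4 libraries (-0.73, -0.92, -0.83 and -0.86, adjusted p from 0.060 to 0.11). XTH22 was not called without siz1-2 CIM 4 d replicate 2 (0.60, 0.069) or siz1-2 SIM 4 d replicate 3 (0.67, 0.057). EXPA17 was not called without siz1-2 CIM 4 d replicates 1 or 2 (-0.86 in each case, 0.077 and 0.078) or siz1-2 SIM 4 d replicate 2 (-0.52, 0.20). EXPA3 was not called without any siz1-2 CIM 4 d library or siz1-2 SIM 4 d replicates 1 or 3 (-1.07 to -1.14, adjusted p from 0.054 to 0.072). On CIM, EXPA9 was not called without any siz1-2 0 d library or siz1-2 CIM 4 d replicate 2 (-0.45 to -0.47, adjusted p from 0.068 to 0.078), or without replicate 3 there (-0.26, 0.24). The fall of XTH11 at SIM 6 d was lost without any one of the 6 libraries, at log2 changes from -0.96 to -1.28 and adjusted p from 0.065 to 0.28.

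**Figure D4:**
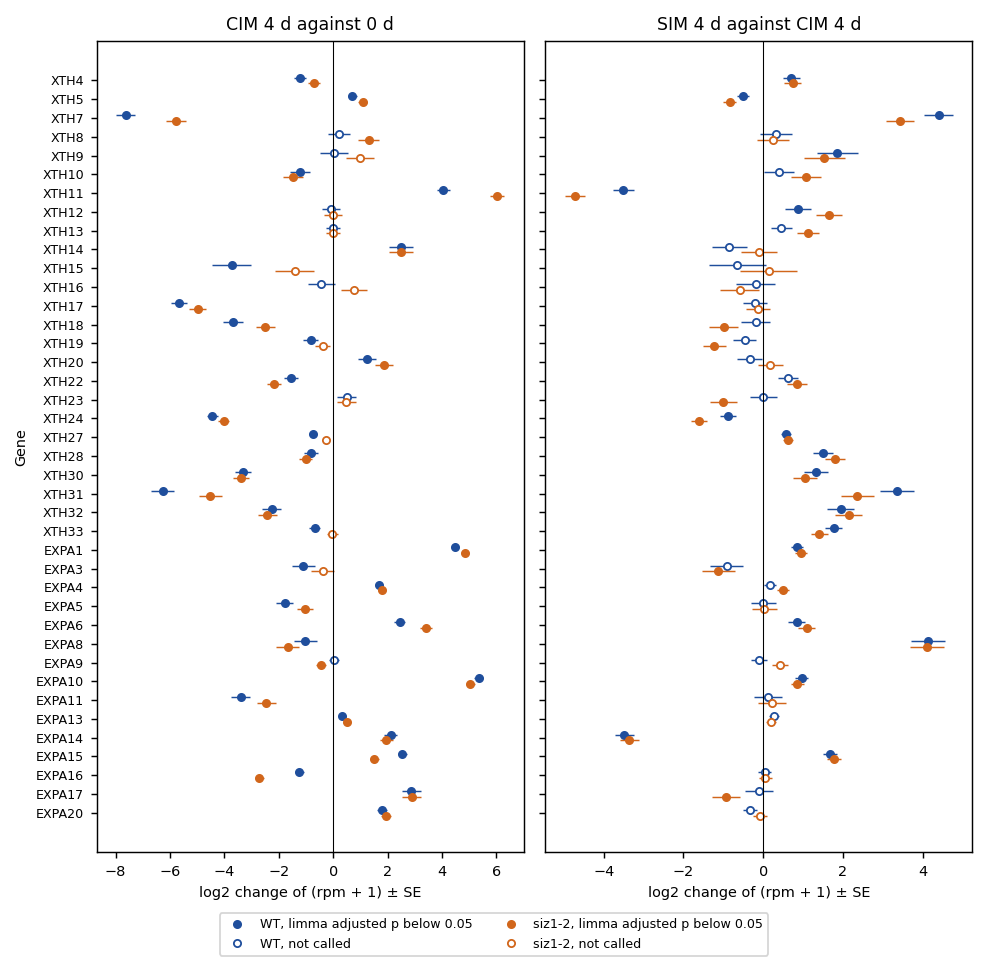
The log2 change of (rpm + 1) with its standard error for the 40 tested members, CIM 4 d against 0 d (left) and SIM 4 d against CIM 4 d (right), in WT (blue) and siz1-2 (orange), filled where the limma adjusted p is below 0.05. XTH7, XTH31 and XTH17 lie farthest left on CIM, EXPA10, EXPA1 and XTH11 farthest right, and XTH11 is farther right in siz1-2 (6.03) than in WT (4.05).

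Genotypes were then compared at each stage. At 0 d siz1-2 had 3 members higher and 5 lower, against 4.37% and 6.6% of all tested genes. Under median-of-ratios scaling the counts over all genes, 889 higher and 1344 lower, became 1126 and 988. EXPA16 stood out: 1.57, 0.96 and 1.64 rpm in WT and 7.21, 6.22 and 4.66 rpm in siz1-2, a log2 difference of 1.55 ± 0.16 (adjusted p = 1.5e-06). It was higher in all 3 siz1-2 libraries than in any WT one and kept its call without each library in turn. XTH22, the touch gene, had 11.4, 17.6 and 10.3 rpm in WT and 32.7, 21.7 and 21.4 rpm in siz1-2 (0.90 ± 0.26, adjusted p = 0.027). EXPA10 had 2.65, 1.57 and 1.75 rpm in WT and 4.16, 3.35 and 2.66 rpm in siz1-2 (0.56 ± 0.17, adjusted p = 0.036).

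The members lower in siz1-2 at 0 d were EXPA1, EXPA4, EXPA6, XTH4 and XTH33. EXPA6 had 36.7, 23.1 and 21.7 rpm in WT and 14.4, 13.0 and 9.21 rpm in siz1-2 (-1.07 ± 0.21, adjusted p = 0.0023). EXPA1 had 45.8, 32.1 and 31.5 rpm in WT and 24.6, 13.8 and 22.3 rpm in siz1-2 (-0.84 ± 0.16, adjusted p = 0.0013). XTH33, which sits in the plasma membrane, had 7.78, 6.28 and 5.25 rpm in WT and 3.35, 2.87 and 2.44 rpm in siz1-2 (-0.93 ± 0.21, adjusted p = 0.0057). The groups did not overlap for these 3, which kept their calls without each library in turn.

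XTH4 had 520, 494 and 328 rpm in WT at 0 d and 314, 212 and 244 rpm in siz1-2 (-0.79 ± 0.22, adjusted p = 0.022). EXPA4 had 392, 391 and 369 rpm in WT and 224, 251 and 319 rpm in siz1-2 (-0.55 ± 0.15, adjusted p = 0.021). EXPA4 was not called under median-of-ratios scaling or with edgeR (adjusted p = 0.055 in both), EXPA10 not with edgeR (0.064) and XTH22 not without the 4 libraries that stood apart (0.075). XTH4 lost its call without WT 0 d replicate 1 (-0.67, 0.11), WT 0 d replicate 2 (-0.70, 0.091), siz1-2 0 d replicate 2 (-0.66, 0.099) or siz1-2 0 d replicate 3 (-0.76, 0.075). EXPA4 lost it without WT 0 d replicate 1 (-0.53, 0.071), WT 0 d replicate 2 (-0.54, 0.067), siz1-2 0 d replicate 1 (-0.44, 0.092) or siz1-2 0 d replicate 2 (-0.52, 0.071). XTH22 lost it without WT 0 d replicate 1 (0.83, 0.10), WT 0 d replicate 3 (0.76, 0.11) or siz1-2 0 d replicate 1 (0.71, 0.11). EXPA10 lost it without WT 0 d replicate 2 (0.46, 0.15), WT 0 d replicate 3 (0.51, 0.11), siz1-2 0 d replicate 1 (0.43, 0.14) or siz1-2 0 d replicate 2 (0.56, 0.083). The heat shock markers were 854 to 1839 rpm in siz1-2 at 0 d and 152 to 236 rpm in WT. Xylem markers were 687 to 705 rpm against 437 to 595 in WT, epidermis markers 1662 to 2017 against 1268 to 1532, and root and callus identity markers 8.21 to 15.8 against 26.9 to 32.1. None of these sums overlapped between genotypes. Neither did those of phloem (417.5 to 429 against 458 to 474 rpm), endodermis (142 to 197 against 124 to 139) and salicylic acid genes (113 to 128 against 69.0 to 77.9). The stomatal lineage and shoot meristem sums did not overlap either, whereas those of root hair and light-grown markers and PORA did. Most marker lists were thus apart at 0 d, and their part in these differences was not tested.

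On CIM, 2 members were higher in siz1-2 and 0 lower, against 1.3% and 0.904% of all tested genes. XTH11 had 19.9, 40.2 and 22.3 rpm in WT and 142, 127 and 179 rpm in siz1-2, a log2 difference of 2.45 ± 0.25 (adjusted p = 5.8e-06), and kept its call without each library in turn. Its lowest siz1-2 library was over 3 times its highest WT library. XTH27 had 72.8, 75.5 and 73.9 rpm in WT and 118, 110 and 86.0 rpm in siz1-2 (0.48 ± 0.12, adjusted p = 0.046; 0.051 with edgeR). It lost its call without any of WT CIM 4 d replicates 1, 2 and 3 (adjusted p = 0.14, 0.072 and 0.12) or of siz1-2 CIM 4 d replicates 1 and 2 (0.20 and 0.16).

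Without the 4 libraries that stood apart, 5 members were higher on CIM in siz1-2: XTH15, XTH11, XTH7, XTH24 and XTH27. The share of all genes called in that fit is not given here. XTH15 had 37.0, 22.9 and 1.93 rpm in siz1-2 and 2.46, 0.422 and 5.64 rpm in WT, and in each genotype its lowest library was the one with high salicylic acid genes. XTH24 had 164, 143 and 98.0 rpm in siz1-2 and 78.5, 59.6 and 98.4 rpm in WT, and was not called over all libraries (log2 0.77 ± 0.20, adjusted p = 0.054).

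At SIM 4 d, XTH15, XTH11 and XTH27 were higher in siz1-2 and 0 members lower, against 1.1% of all tested genes in each direction. XTH15 had 1.46, 1.05 and 0.671 rpm in WT and 9.96, 15.3 and 18.9 rpm in siz1-2, a log2 difference of 2.91 ± 0.72 (adjusted p = 0.039). Its groups did not overlap, but its call was lost without any one of the 6 libraries, at log2 differences from 2.72 to 3.15 and adjusted p from 0.075 to 0.13. The standard error of XTH15 is estimated over all 8 groups. These include wider ones, WT 0 d at 20.8 to 106 rpm and siz1-2 CIM 4 d at 1.93 to 37.0 rpm. XTH11 had 1.08, 1.53 and 1.61 rpm in WT and 3.72, 4.18 and 6.35 rpm in siz1-2 (1.24 ± 0.25, adjusted p = 0.012). It lost its call without WT SIM 4 d replicate 1 (1.13, 0.076) or siz1-2 SIM 4 d replicate 3 (1.05, 0.060). XTH27 had 129, 99.4 and 104 rpm in WT and 162, 144 and 173 rpm in siz1-2 (0.53 ± 0.12, adjusted p = 0.025; 0.058 under median-of-ratios scaling and 0.052 with edgeR), and lost its call without WT SIM 4 d replicates 2 or 3 (0.12, 0.077) or siz1-2 SIM 4 d replicates 1 or 3 (0.095, 0.10).

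At SIM 6 d, EXPA14 and XTH27 were higher in siz1-2 and 0 members lower, against 1.42% and 1.59% of all tested genes. Over all genes, 290 were higher and 323 lower, or 210 and 353 under median-of-ratios scaling. XTH27 had 114, 85.1 and 104 rpm in WT and 135, 155 and 159 rpm in siz1-2 (0.57 ± 0.12, adjusted p = 0.013), and was the one member called higher at all 3 stages in culture. It lost its call at this stage without WT SIM 6 d replicate 2 (0.45, 0.083), the library with heat shock genes, or siz1-2 SIM 6 d replicates 2 (0.54, 0.056) or 3 (0.52, 0.062). EXPA14 had 1.73, 0.952 and 1.19 rpm in WT and 4.68, 3.00 and 2.19 rpm in siz1-2 (0.88 ± 0.24, adjusted p = 0.049; 0.080 under median-of-ratios scaling and 0.071 without the 4 libraries that stood apart). It lost its call without WT SIM 6 d replicate 1 (1.01, 0.068), 2 (0.77, 0.17) or 3 (0.85, 0.096), or siz1-2 SIM 6 d replicate 1 (0.66, 0.35) or 2 (0.91, 0.10). XTH15 kept its separation, with 0.863, 1.39 and 2.14 rpm in WT and 12.2, 14.1 and 11.7 rpm in siz1-2, without passing (log2 2.50 ± 0.72, adjusted p = 0.070).

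**Figure D5:**
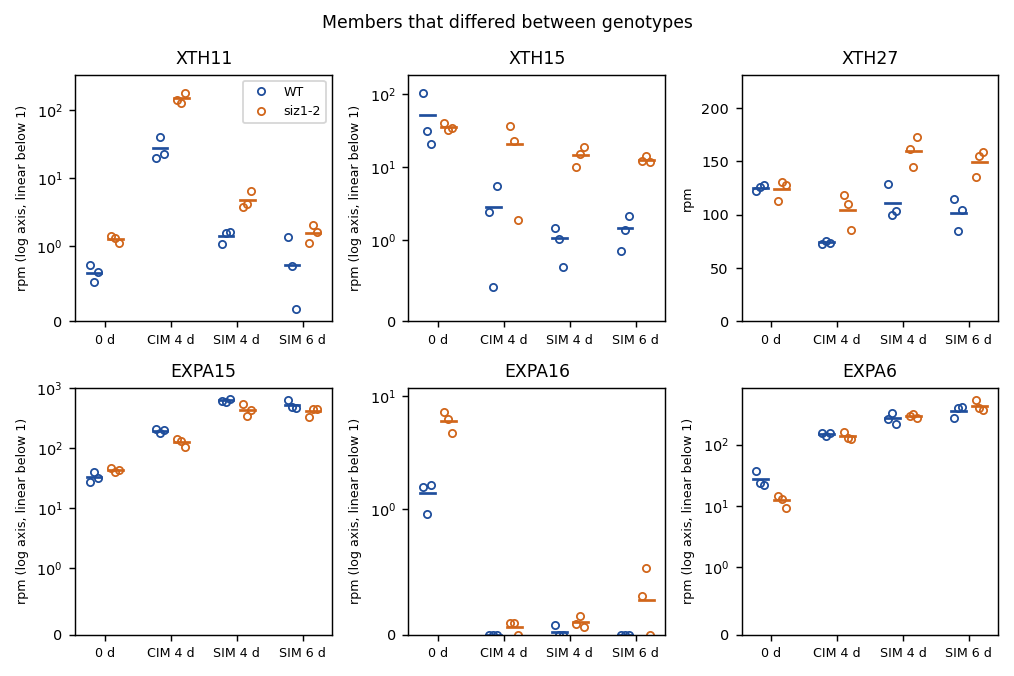
Levels (rpm; log axis that is linear below 1, except for XTH27, which is linear) of 6 members that differed between genotypes at some stage or in their change, in every library of WT (blue) and siz1-2 (orange) with group means as short lines. XTH11 is at 127 to 179 rpm in siz1-2 and 19.9 to 40.2 rpm in WT on CIM, and EXPA16 is at 4.66 to 7.21 rpm in siz1-2 and 0.96 to 1.64 rpm in WT at 0 d.

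The change from 0 d to CIM was tested for a difference between genotypes. With limma 1 member, XTH11, was called upward in siz1-2 relative to WT and 2, EXPA16 and EXPA15, downward, against 1.64% and 1.51% of all tested genes. XTH11 had a log2 difference of 1.98 ± 0.36 (adjusted p = 0.0035) on the log2(rpm + 1) scale, on which its 0 d levels near 1 rpm are compressed. As ratios of mean rpm it rose 42.8-fold in WT and 116-fold in siz1-2, which differ by 1.44 on the log2 scale. On recovered reads the difference was 1.42 with edgeR and was not called (adjusted p = 0.31 with edgeR and 0.18 with DESeq2). EXPA16 had no read on CIM in WT and 2 reads over the 3 siz1-2 libraries. Its value of -1.47 ± 0.22 (adjusted p = 0.00066) is bounded by the 0 d levels, which differed by 1.55, and does not show that the change differed. On recovered reads it was 0.56 with edgeR (adjusted p = 0.76), and the adjusted p was 0.95 with DESeq2. EXPA15 had 47.7, 39.7 and 43.7 rpm at 0 d and 142, 133 and 107 rpm on CIM in siz1-2, a smaller rise than in WT by 1.03 ± 0.24 (adjusted p = 0.024), and was also called with edgeR (adjusted p = 0.049) and DESeq2 (0.0091).

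XTH11 and EXPA16 kept this call without each library in turn. EXPA15 lost it without WT 0 d replicate 1 (-0.91, 0.075), WT CIM 4 d replicate 1 (-0.98, 0.058), WT CIM 4 d replicate 3 (-1.005, 0.059) or siz1-2 0 d replicate 3 (-1.03, 0.053). Without the 4 libraries that stood apart, 6 members were called upward, XTH31, XTH15, XTH7, XTH11, XTH20 and XTH27, and 1, EXPA16, downward. EXPA15 was not called there (adjusted p = 0.10), and the share of all genes called in that fit is not given here. XTH7 was not called over all libraries by limma (1.85 ± 0.51, adjusted p = 0.054) but was by edgeR (0.043) and DESeq2 (0.0013), with 10.4, 4.21 and 1.84 rpm on CIM in siz1-2. For the steps to SIM 4 d and to SIM 6 d, 0 members passed by limma in either direction, against 0.0638% and 0.147%, and 0.00982% and 0.0%, of all tested genes, with 2 and 5 members at an unadjusted p below 0.05. On recovered reads, edgeR and DESeq2 also called 0 members in both steps.

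Other genes of the wall were counted from lists chosen with earlier results known, beside 49.1% of all tested genes higher and 26.6% lower on CIM in WT, and 21.2% and 24.5% at SIM 4 d. Cellulose synthesis was the most uniform: all 10 listed genes, among them CESA1, CESA3 and CESA6 of the primary wall, fell on CIM in WT and all 10 rose at SIM 4 d, and the same counts were found in siz1-2. CESA2 went from 266 ± 56.9 to 14.7 ± 2.13 and back to 55.8 ± 6.48 rpm (SD, n = 3) and CESA8, of the xylem wall, from 67.7 ± 14.1 to 14.0 ± 2.91 and 43.4 ± 8.95 rpm. Of 13 xyloglucan synthesis genes 3 rose and 2 fell on CIM in WT, led by CSLC8 (6.96 ± 2.00 to 17.2 ± 2.12 rpm) and XLT2 (10.9 ± 0.676 to 5.63 ± 1.49 rpm), and 6 rose and 0 fell at SIM 4 d. Of 4 xyloglucan trimming enzymes 3 rose and 1 fell on CIM, with BGLC1, a beta-glucosidase, from 58.6 ± 10.2 to 268 ± 4.22 rpm and BGAL10, a beta-galactosidase, from 24.02 ± 5.46 to 89.0 ± 8.10 rpm. XYL1, an alpha-xylosidase, was the trimming enzyme that fell.

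Of 7 beta-expansin and expansin-like genes tested, 2 rose and 3 fell on CIM in WT. EXLB1 went from 20.5 ± 4.58 to 1.92 ± 1.68 rpm (SD, n = 3) and EXLA1 from 34.4 ± 0.785 to 5.87 ± 2.00 rpm, whereas EXPB3 went from 230 ± 72.8 on CIM to 1155 ± 80.4 rpm at SIM 4 d. Of 10 plasma membrane proton pump genes, which acidify the wall, 3 rose and 3 fell on CIM, with AHA7 going from 1.89 ± 0.642 to 8.65 ± 0.421 rpm. Of 19 regulators of elongation and callus, 6 rose and 10 fell. HFR1 went from 188 ± 15.0 to 1.57 ± 0.756 rpm and PIF4, which drives hypocotyl growth in the dark and in warmth, from 32.4 ± 1.37 to 0.0418 ± 0.0724 rpm. LBD16 went from 19.7 ± 0.928 to 118 ± 10.9 and then to 1.52 ± 0.713 rpm at SIM 4 d.

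Between genotypes, 11 of the 63 listed genes tested were called at 0 d, 2 higher and 9 lower in siz1-2, against 4.37% and 6.6% of all tested genes. Under median-of-ratios scaling 6 of the 9 lower calls were lost, XXT2, FUT1, BGLC1, CESA3, CESA5 and ATHB2, at adjusted p from 0.052 to 0.077. At 0 d in siz1-2, HY5, a factor of growth in the light, was at 72.0 ± 25.4 rpm (SD, n = 3) against 19.3 ± 7.66 in WT, LBD16 at 8.13 ± 2.73 against 19.7 ± 0.928, AHA4 at 2.24 ± 0.173 against 5.69 ± 1.33, and XXT1, a xyloglucan xylosyltransferase, at 33.1 ± 1.17 against 20.7 ± 1.65. CESA2, CESA3 and CESA5, with XXT2, FUT1, BGLC1 and ATHB2, were lower at 0 d by 0.32 to 0.88 on the log2 scale. On CIM, EXLA1 was higher in siz1-2, at 14.2 ± 5.36 against 5.87 ± 2.00 rpm, and BGAL10 lower, at 61.6 ± 8.62 against 89.0 ± 8.10 rpm. On SIM, DWF4, of brassinosteroid synthesis, was higher on both days (34.6 ± 4.14 against 21.2 ± 3.93 rpm at SIM 4 d, and 34.6 ± 2.68 against 24.8 ± 3.09 rpm at SIM 6 d), AHA1 higher at SIM 4 d (1068 ± 103 against 757 ± 88.9 rpm) and AHA4 lower at SIM 6 d (2.85 ± 0.712 against 6.05 ± 0.638 rpm). At SIM 6 d the call of DWF4 (adjusted p = 0.047) was lost under median-of-ratios scaling (0.072) and without the 4 libraries that stood apart (0.12), and that of AHA4 (0.032) without those libraries (0.076). The calls of EXLA1 and BGAL10 on CIM and of AHA1 and DWF4 at SIM 4 d were kept in both these settings. Each was lost in some other alternative fit, with a highest adjusted p of 0.37, 0.28, 0.099 and 0.061 in that order. That of CESA2 at 0 d reached 0.105 in the same way.

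Members below the filter complete the 50. XTH2 and XTH25 had no read in any library, and XTH3 had 1 read and XTH21 2 reads in all. XTH6, EXPA2 and EXPA12 had 17, 16 and 6 reads over the 24 libraries, which for EXPA2, a gene of germinating seeds, leaves its level at 0.547 rpm or below in each. XTH29 had at most 1.18 rpm, in WT CIM 4 d replicate 2. EXPA20 overlaps an antisense gene over 81.3% of its 50-base windows, and that gene was not analysed here, so the level of EXPA20, 22.1 ± 1.03 rpm (SD, n = 3) at 0 d and 81.0 ± 19.9 on CIM in WT, may hold reads of either strand. EXPA9 was steady among the tested members, with group means in WT from 21.8 to 26.7 rpm and no call in any WT step.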

How the data were processed

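RNA-seq of 24 libraries was used, in 8 groups of 3 by genotype and stage, as the labels give them. The labels' protocols name a stranded mRNA kit, and the submitters' processing notes list the programs bcl2fastq and Bowtie (1.2.1) with TAIR10 as the build. How reads were counted, and whether by strand, is not stated in the labels. The deposited signal values are RPM, reads of an isoform scaled to a library total of 1000000: every value was a whole multiple of 1 read (100%, within 0.001 read), so reads could be recovered, and library totals ran from 7979350 to 15591781. The values of a library sum to more than 1000000, so some reads count for several isoforms. From these files, the isoform with the highest mean stood for its gene.

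Genes with at least 1 rpm in at least 3 libraries (20361; 5599 were left out) were tested with limma 3.58.1 (R 4.3.3, trend and robust options) on log2(rpm + 1), with 8 group means and 16 residual degrees of freedom, and Benjamini-Hochberg adjusted p below 0.05 was called. Fold changes on this scale understate those of low genes; fold values are ratios of mean rpm. The statistics were tested on simulated data. Alternatives were edgeR 4.0.16 and DESeq2 1.42.0 on recovered reads, other pseudocounts, scalings, filters and isoform sums, the compared groups alone, a replicate block, and leaving out libraries. Promoters, transcript lengths and positions came from the RefSeq copy of TAIR10.1, whose nuclear sequence is that of TAIR10.

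Members and lists were chosen with earlier results of these data known. Named members are the 5 largest rises and falls of each WT step and all members called between genotypes. Named list genes are the 2 largest called changes of a list in a WT step and those called between genotypes. LBD18, EXPA9 and other members beyond these were named after their values were seen.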

Additional observations from a re-analysis of the deposited data

Results flagged for a closer look

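For the change from 0 d to CIM, 3 members passed the test of a difference between genotypes, the interaction term of the limma model. XTH11 had a difference of 1.98 on the log2(rpm + 1) scale and of 1.44 between the folds of mean rpm, and was not called with edgeR or DESeq2. Its siz1-2 CIM libraries all lay above the WT ones. EXPA16 had a difference of -1.47, with 4.66 to 7.21 rpm at 0 d in siz1-2, 0.96 to 1.64 rpm in WT and at most 0.0926 rpm on CIM. With its CIM groups at 0 and 2 reads, this value is bounded by the 0 d levels and does not show that the change differed. EXPA15 had a difference of -1.03, with a rise of 5.93-fold in WT and 2.92-fold in siz1-2.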

How the results depend on the processing

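Depth limits low members: 1 read is 0.0641 to 0.125 rpm. Of calls left without the 4 libraries that stood apart, 8 members were lower at SIM 4 d in WT, 2 higher at SIM 6 d in siz1-2, 5 higher in siz1-2 on CIM, 1 lower in siz1-2 at SIM 4 d, and 6 upward and 1 downward for the genotype difference on CIM.

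With the compared groups alone, 0 members rose at SIM 6 d in WT, 1 rose and 0 fell at SIM 6 d in siz1-2, 8 were lower in siz1-2 at 0 d, 1 higher on CIM and 1 higher at SIM 6 d. With DESeq2, 2 rose at SIM 6 d in WT, 1 rose and 2 fell in siz1-2, 5 were higher in siz1-2 on CIM, 4 higher and 2 lower at SIM 6 d, and the genotype difference on CIM had 3 upward and 1 downward. With edgeR, 0 fell at SIM 6 d in siz1-2, 1 was higher in siz1-2 on CIM and the genotype difference on CIM had 1 downward. The fall of XTH11 at SIM 6 d in siz1-2 (1 member) became 0 under both pseudocounts, median-of-ratios, TMM and the replicate block. A pseudocount of 2 gave 1 higher in siz1-2 at SIM 6 d, 2 upward for the genotype difference on CIM and 1 downward for that at SIM 4 d. No filter gave 1 higher on CIM and 1 at SIM 6 d in siz1-2, and median-of-ratios, TMM and summed isoforms each gave 1 at SIM 6 d. The cause was not tested.

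Leaving out each library in turn gave, as higher and lower members, 12 to 13 and 16 to 20 on CIM in WT, 13 to 15 and 3 to 5 at SIM 4 d, and 1 to 3 and 0 at SIM 6 d. In siz1-2 it gave 14 to 16 and 15 to 18, 14 to 21 and 5 to 8, and 0 and 0. Between genotypes it gave 1 to 3 and 3 to 7 at 0 d, 1 to 6 and 0 to 1 on CIM, 0 to 2 and 0 at SIM 4 d, and 0 to 1 and 0 to 3 at SIM 6 d. For the genotype difference it gave 1 to 7 and 1 to 2 on CIM, 0 and 0 at SIM 4 d, and 0 and 0 to 1 at SIM 6 d.

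EXPA13 on CIM in WT reversed from 0.33 to -0.08525 with median-of-ratios, -0.01284 with TMM, -0.007617 with edgeR and -0.0845 with DESeq2. In siz1-2, XTH15 and XTH20 at SIM 4 d reversed to -0.98 and -0.41 without the 4 libraries. The genotype difference of EXPA16 became 0.56 with edgeR, where its CIM groups hold 0 and 2 reads.

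Replicate numbers are shared between groups, and same-numbered libraries correlated from -0.731 to 0.607 in their deviations from group means. With 3 libraries per group, and some that stand apart, this cannot settle whether same-numbered libraries shared a batch or culture. The main fit did not pair them. With the replicate block 1 member was higher in siz1-2 on CIM and 0 fell at SIM 6 d in siz1-2.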
